A study of Caenorhabditis elegans with 4 samples.

Results

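The miRNA families of *lin-4* and *let-7* were described by the counts of 8 members, taken by name from the 148 miRNA names of the count table. The *lin-4* family was represented by *lin-4* (cel-lin-4 in the table) and *miR-237* (cel-mir-237). The *let-7* family was represented by *let-7* (cel-let-7), *miR-793* (cel-mir-793), *miR-48* (cel-mir-48), *miR-794* (cel-mir-794), *miR-84* (cel-mir-84) and *miR-241* (cel-mir-241). The question was which member makes up most of each family in larvae at the first larval stage (L1), and how that composition differs between strains and between replicates. Small RNA of whole animals was sequenced in 2 *pry-1(mu38)* libraries and 2 libraries of the wild type N2. *pry-1* encodes an Axin, a scaffold protein that restrains WNT signaling, and the *pry-1(mu38)* strain carries a mutant allele of it, which small RNA counts cannot check. Both strains were grown on standard plates at the same temperature and synchronized by bleaching on 2 occasions, and no other allele or agent is named for either. The study states that *pry-1* mutants grow slower than controls, and for its qRT-PCR it grew the mutant L1 larvae for longer than N2. Growth times of the sequenced larvae are not given, so a difference in stage within L1 cannot be told apart from the strain. The libraries are not described as separate cultures, so the p-values measure the spread between these libraries only, which may be technical.

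Heterochronic miRNAs time the divisions and fates of larval cells, among them the seam cells of the epidermis. A miRNA guides Argonaute proteins to mRNAs mainly through its seed near the 5′ end, so members with one seed can bind many of the same targets, and the supply of a seed depends on the sum of its members. In *C. elegans*, *lin-4* represses *lin-14* and *lin-28* and ends the first-stage program, *miR-84*, *miR-241* and *miR-48* act together on *hbl-1* in the following stage, and *let-7* represses *lin-41* late in larval life.

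The mature sequences are shown because the seed defines the families. Capitals mark bases 2 to 8 of the mature miRNA, counted from its 5′ end, and the sequences are those listed by the study for its known miRNAs. *miR-794* belongs to the *let-7* set and is described by its counts.
lin-4: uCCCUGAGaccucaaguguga
miR-237: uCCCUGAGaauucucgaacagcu
let-7: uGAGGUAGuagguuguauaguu
miR-48: uGAGGUAGgcucaguagaugcga
miR-84: uGAGGUAGuauguaauauugua
miR-241: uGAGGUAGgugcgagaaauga
miR-793: uGAGGUAUcuuaguuagacaga

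*lin-4* and *miR-237* were the only miRNAs among 157 listed mature sequences with CCCUGAG at bases 2 to 8. The *let-7* set was less uniform. *miR-241*, *miR-84*, *miR-48* and *let-7* shared GAGGUAG at bases 2 to 8, a run found in 5 of the 157 listed sequences (3.18%). *miR-793* and *miR-794* shared only bases 2 to 7 with them, and GAGGUA at bases 2 to 7 was found in 7 of the 157 (4.46%). Beyond the seed the members differed at many bases. The closest pair, *let-7* and *miR-84*, differed at 5 of 22 aligned bases, and *lin-4* and *miR-237* at 9 of 21. The mature forms are 21 to 23 nt long in the 7 sequences shown, so counts were compared between members without a correction for length. Capture of a sequence by adapters can differ between miRNAs and was not tested, so every share below is a share of counted reads.

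In WBcel235, the hairpins other than that of *lin-4* lie outside protein-coding genes. *miR-793* lies on chromosome X from 13857962 to 13858053 on the plus strand, and *let-7* on chromosome X from 14744173 to 14744271 on the minus strand. *miR-237* (chromosome X, 8154084 to 8154182, plus strand) and *miR-84* (chromosome X, 16022404 to 16022478, minus strand) complete the X-linked set. Chromosome V holds *miR-241* from 14366188 to 14366283 and, 1678 bp away on the same minus strand, *miR-48* from 14364412 to 14364509. *miR-794* (chromosome I, 12595690 to 12595773, plus strand) follows *miR-795* after 1032 bp. The only host gene is that of *lin-4* (chromosome II, 5902254 to 5902347, plus strand), which lies in an intron of F59G1.4.

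The libraries held 3284425 and 4651818 counts in *pry-1(mu38)* and 6651178 and 6491918 in N2. In stretches of the table the columns stand up to 3 rows apart, so each member's row was checked against the study's list of read totals. All 8 members could be placed. *lin-4*, *let-7* and *miR-84* met their totals in their own rows, and the row of *miR-237* came within 0.1% of it. *miR-48*, *miR-241*, *miR-793* and *miR-794* met theirs only with counts from adjoining rows, in each case including those of N2 replicate 2, and for *miR-48* also those of both *pry-1(mu38)* libraries. For *miR-48*, *miR-793* and *miR-794* a single combination of rows within 3 rows met the total, and the 2 combinations for *miR-241* gave the same counts.

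*miR-237* was the predominant member of the *lin-4* family in all 4 libraries. It had 3014 and 9207 counts in *pry-1(mu38)*, against 2144 and 3770 in N2. *lin-4* itself had 79 and 3693 counts in *pry-1(mu38)*, against 106 and 140 in N2. Thus *pry-1(mu38)* replicate 2 stood apart from the other 3 libraries in the count of *lin-4*. In RNA of whole animals, fewer cells of a type and less RNA per cell cannot be told apart. The share of *lin-4* in the family was 2.55% (95% exact binomial interval 2.03 to 3.17) and 28.6% (27.8 to 29.4) in *pry-1(mu38)* replicates 1 and 2, and 4.71% (3.87 to 5.67) and 3.58% (3.02 to 4.21) in N2 replicates 1 and 2. These intervals and those that follow cover counting error only. *lin-4* thus took the lowest share of the 4 libraries in one mutant replicate and the highest in the other, and the strains overlapped. The mean share of *miR-237* was 84.4% ± 18.4 in *pry-1(mu38)* and 95.9% ± 0.80 in N2 (SD, n = 2 libraries each). Expressed as reads, there were 38.2 and 2.49 *miR-237* counts for each *lin-4* count in *pry-1(mu38)*, against 20.2 and 26.9 in N2.

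The largest part of the *let-7* family was *miR-793*, a *let-7*-related miRNA that differs from *let-7* within the seed. Its counts were 2154 and 5639 in *pry-1(mu38)* and 4762 and 6774 in N2. This was 82.0% (80.5 to 83.5) and 64.2% (63.2 to 65.2) of the family in *pry-1(mu38)* replicates 1 and 2, and 85.9% (84.9 to 86.8) and 91.4% (90.7 to 92.0) in N2. Both mutant shares lay below both N2 shares, with means of 73.1% ± 12.6 in *pry-1(mu38)* and 88.6% ± 3.89 in N2 (SD, n = 2 libraries each). With 2 libraries per strain an exact two-sided permutation test cannot give a p-value below 0.333, which was its value here. The level of *miR-793* overlapped between strains, at 679 and 1137 CPM in *pry-1(mu38)* and 808 and 952 CPM in N2, where CPM are counts scaled by library total and TMM factor. Its log2 ratio was 0.05 with an SE of 0.37 (adjusted p = 0.956 by the quasi-likelihood test of edgeR). This was the smallest fitted ratio among the 8 members.

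*miR-48* was the second member of the *let-7* family in every library. It had 280 and 2254 counts in *pry-1(mu38)* and 544 and 250 in N2, which was 10.7% (9.51 to 11.9) and 25.7% (24.7 to 26.6) of the family in *pry-1(mu38)* and 9.81% (9.04 to 10.6) and 3.37% (2.97 to 3.81) in N2. Its share in *pry-1(mu38)* replicate 1 was within the counting error of its share in N2 replicate 1. *miR-794* ranked 3 in 3 libraries and 4 in *pry-1(mu38)* replicate 2, where *miR-84* passed it. The counts of *miR-794* were 122 and 297 in *pry-1(mu38)* and 113 and 201 in N2, or 4.65% and 3.38% of the family in *pry-1(mu38)* and 2.04% and 2.71% in N2. Unlike *miR-48*, it took its larger share in *pry-1(mu38)* replicate 1.

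The remaining members were minor. *miR-84* had 47 and 341 counts in *pry-1(mu38)* and 55 and 159 in N2. *miR-241* had 9 and 216 counts in *pry-1(mu38)* and 17 and 15 in N2, which was 0.34% (0.16 to 0.65) and 2.46% (2.15 to 2.80) of the family in *pry-1(mu38)* and 0.31% (0.18 to 0.49) and 0.20% (0.11 to 0.33) in N2. Its share rests on *pry-1(mu38)* replicate 2, since the intervals of the other 3 libraries overlap. The founding member *let-7* had 14 and 38 counts in *pry-1(mu38)* and 54 and 14 in N2 and never exceeded 0.97% of the family. Between *let-7* and *miR-241* the order was not fixed. *let-7* was above *miR-241* in replicate 1 of both strains and below it in replicate 2 of both. *miR-795*, which carries the *let-7* seed but is no member of the set described, met its total with 15 and 39 counts in *pry-1(mu38)* and 14 and 13 in N2. That needed N2 replicate 2 to be displaced by 2 rows where its neighbour *miR-794* needed 1, so *miR-795* was left out of the shares and tests.

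**Figure D1:**
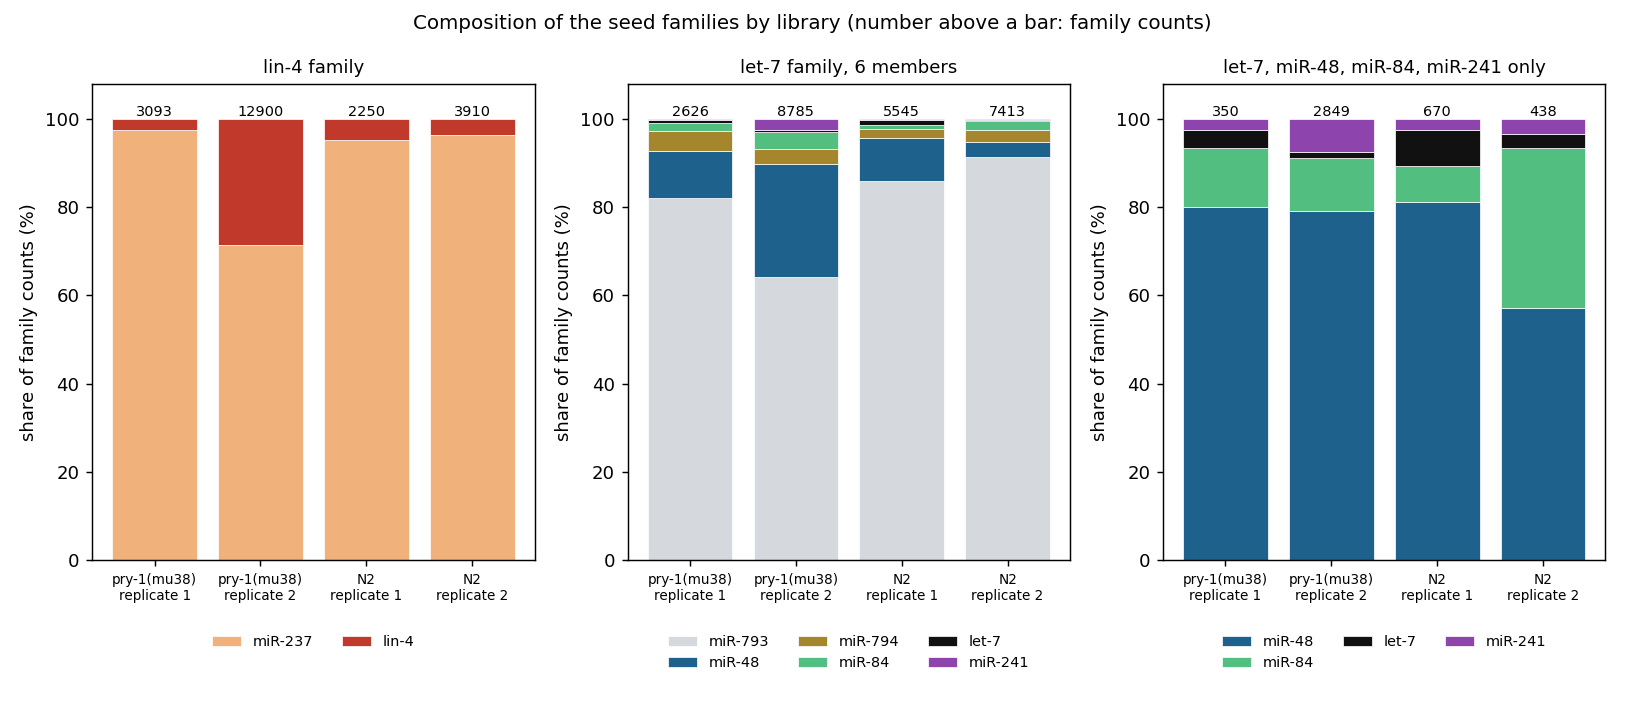
Share of family counts (y axis, %) taken by each member in each library (x axis), for the *lin-4* family, the 6 members of the *let-7* family, and the 4 *let-7* members with identical bases 2 to 8. The number above a bar is the count of the family. *miR-237*, *miR-793* and *miR-48* fill most of each bar of their own panel, *lin-4* reaches 28.6% in *pry-1(mu38)* replicate 2, and *miR-84* reaches 36.3% of the 4 in N2 replicate 2.

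When the *let-7* family was restricted to the 4 members with identical bases 2 to 8, *miR-48* was the predominant member in all 4 libraries. It took 80% (75.4 to 84.1) and 79.1% (77.6 to 80.6) of these counts in *pry-1(mu38)* and 81.2% (78.0 to 84.1) and 57.1% (52.3 to 61.8) in N2. The share of *miR-48* was thus lowest in N2 replicate 2. *miR-84* took 13.4% (10.04 to 17.5) of 350 counts and 12.0% (10.8 to 13.2) of 2849 counts in *pry-1(mu38)*, against 8.21% (6.24 to 10.6) of 670 counts and 36.3% (31.8 to 41.0) of 438 counts in N2. *miR-241* took 2.57% (1.18 to 4.83) and 7.58% (6.64 to 8.62) in *pry-1(mu38)* and 2.54% (1.48 to 4.03) and 3.42% (1.93 to 5.59) in N2, so that its share in *pry-1(mu38)* replicate 2 lay above the intervals of the other 3 libraries. *let-7* took 4% (2.204 to 6.62) and 1.33% (0.95 to 1.83) in *pry-1(mu38)* and 8.06% (6.11 to 10.4) and 3.20% (1.76 to 5.30) in N2. The 4 members together had 101.2 and 587 CPM in *pry-1(mu38)* and 110 and 68.0 in N2. For this sum the TMM factors were fitted anew, so its CPM are not on the scale of those of single members. Between the *pry-1(mu38)* replicates, the intervals of *miR-48* and *miR-84* overlapped and those of *miR-241* and *let-7* did not, and the summed level was highest in replicate 2.

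How far 2 libraries stood apart in composition was measured by the summed absolute difference of the shares, divided by 2. In the *lin-4* family, the 2 *pry-1(mu38)* libraries were 26.1 percentage points apart and the 2 N2 libraries 1.13 points. *pry-1(mu38)* replicate 1 was 2.16 and 1.03 points from the N2 libraries, and replicate 2 was 23.9 and 25.05 points from them. The same library was the distant one among the 6 *let-7* members, where the *pry-1(mu38)* libraries were 19.2 points apart and the N2 libraries 7.33. Here *pry-1(mu38)* replicate 1 lay 4.29 and 9.71 points from the N2 libraries. For the 4 members with identical bases 2 to 8, the 2 *pry-1(mu38)* libraries were 5.01 points apart and the 2 N2 libraries 29.0. In none of the 3 sets was each distance between strains larger than both distances within a strain.

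Composition was then compared between strains within the fit over all miRNAs. Of the 85 miRNAs that passed the count filter, 33 fell into 13 families with at least 2 tested members by bases 2 to 7. Each of these was compared with its family by its log2 fold change relative to that of the family as a whole. None of the 33 had an adjusted p-value under 0.05 (0% called, edgeR's test of differential usage on the quasi-likelihood fit), and 1 of the 33 (3.03%) had an unadjusted p-value under 0.05, which was *miR-241*. *miR-241* was higher relative to its family by bases 2 to 7 in *pry-1(mu38)* (log2 difference 2.83, SE 1.18, adjusted p = 0.9997 with edgeR). The values of *lin-4* were 2.41 with a standard error of 1.32, those of *miR-48* 1.70 with 1.01, those of *miR-84* 1.01 with 1.07 and those of *miR-794* 0.66 with 1.05. *miR-793*, *miR-237* and *let-7* had values of -0.35, -0.29 and -0.25, each smaller than its standard error. Without *pry-1(mu38)* replicate 1, *lin-4*, *miR-48* and *miR-241* were past the threshold in this comparison, in a fit that assumes the lone mutant library to vary like the N2 libraries. Without *pry-1(mu38)* replicate 2 none was, and the value of *lin-4* was -0.66.

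The summed level of the *lin-4* family was higher in both *pry-1(mu38)* libraries, at 903 and 2740 CPM against 374 and 576 in N2, without overlap. Of the 85 miRNAs tested singly, 27.1% were likewise higher in *pry-1(mu38)* without overlap. The TMM factors were fitted anew for the sums, so these CPM cannot be set beside those of single members. By the factors of the member fit, *miR-237* alone had 951 CPM in *pry-1(mu38)* replicate 1. Of the library totals, the *lin-4* family made up 0.0942% and 0.277% in *pry-1(mu38)* and 0.0338% and 0.0602% in N2. The fitted log2 ratio of the *lin-4* family sum was 1.94 with an SE of 0.61 (adjusted p = 0.372 by edgeR over 79 entries, with the members replaced by their sums). DESeq2's Wald test of the same sum gave an adjusted p of 0.00296. Without *pry-1(mu38)* replicate 1 the edgeR adjusted p was 0.000355, with a single mutant library, the higher one, that was assumed to vary like the N2 libraries. Without *pry-1(mu38)* replicate 2, under the same assumption, the log2 fold change was 0.93 (adjusted p = 0.374, edgeR). The *let-7* family sum was 766 and 1866 CPM in *pry-1(mu38)* and 921 and 1091 in N2, so the mutant libraries enclosed the N2 libraries. Its log2 ratio was 0.39 with an SE of 0.47 (adjusted p = 0.702 by edgeR), and it was -0.39 without *pry-1(mu38)* replicate 2. The sum of the 4 members with identical bases 2 to 8, a comparison added after seeing the data, had a log2 ratio of 1.95 with an SE of 0.86 (adjusted p = 0.390 by edgeR).

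Ratios taken within a library do not depend on the scaling between libraries. The *lin-4* family had 1.18 and 1.47 counts for each count of the *let-7* family in *pry-1(mu38)*, against 0.406 and 0.527 in N2. With all 6 *let-7* members counted, the larger family was therefore the *lin-4* family in both mutant libraries and the *let-7* family in both N2 libraries. This order depended on *miR-793* and *miR-794*. Against the 4 *let-7* members with identical bases 2 to 8, the *lin-4* family was larger in all 4 libraries, with 8.84 and 4.53 counts for each of theirs in *pry-1(mu38)* and 3.36 and 8.93 in N2, which overlap. The most abundant members stood in the same order, as *miR-237* had 1.40 and 1.63 counts for each count of *miR-793* in *pry-1(mu38)* and 0.450 and 0.557 in N2. *miR-793* and *miR-794* also kept distinct proportions, with 17.7 and 19.0 *miR-793* counts for each *miR-794* count in *pry-1(mu38)* and 42.1 and 33.7 in N2. The neighbouring genes *miR-48* and *miR-241* stood at 31.1 and 10.4 *miR-48* counts for each *miR-241* count in *pry-1(mu38)* and 32.0 and 16.7 in N2, which overlap. Over the 28 pairs of members, 7 had ratios that did not overlap between strains, against 45.2% of the 3486 pairs among all miRNAs with counts in every library. In 4 of the 28 the difference between strains was larger than the gap within either strain, against 30.2% of all pairs. By these counts the members' ratios did not separate the strains more often than those of other miRNAs.

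Each member was also compared between strains. By edgeR with Benjamini-Hochberg adjustment, 0 of the 8 members passed the 0.05 threshold, against 1 of the 85 miRNAs tested (1.18%, *miR-2209c*, whose placement its neighbouring rows go against), and 0 were past it with DESeq2's Wald test. At an unadjusted p-value under 0.05, 2 members (*lin-4* and *miR-237*, both higher in *pry-1(mu38)*) were called, against 8.24% of all in either direction and 5.88% higher in *pry-1(mu38)*. All 8 fitted log2 fold changes were above 0, against 57.6% of all miRNAs, and 6 were above 1, against 9.41%. The median was 1.53 over the members and 0.08 over all miRNAs. *lin-4*, *miR-237* and *miR-794* were higher in both mutant libraries than in both N2 libraries, 3 of 8 members against 27.1% of all miRNAs. *miR-794* had 38.5 and 59.9 CPM in *pry-1(mu38)* and 19.2 and 28.2 in N2, and its log2 ratio was 1.05 with an SE of 0.43 (adjusted p = 0.457 by edgeR). *let-7* had 4.42 and 7.66 CPM in *pry-1(mu38)* and 9.16 and 1.97 in N2, so that its N2 libraries enclosed both mutant libraries. The members were chosen with results of these libraries known, so the counts are descriptions. With *pry-1(mu38)* replicate 1 left out, 6 of the 8 members had a log2 fold change above 1, against 14% of the 86 miRNAs tested. The median was 2.12 over the members and 0.06 over all miRNAs in that fit, which rests on a single mutant library. Without *pry-1(mu38)* replicate 2, 0 members had a log2 fold change above 1, against 2.33% of all miRNAs, and 4 had one above 0, against 34.9%. The median over the members was then 0.05, against -0.15 over all miRNAs, and *lin-4* was at 0.16 in place of 4.35. *let-7*, *miR-84*, *miR-241* and *miR-793* were below 0.

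**Figure D2:**
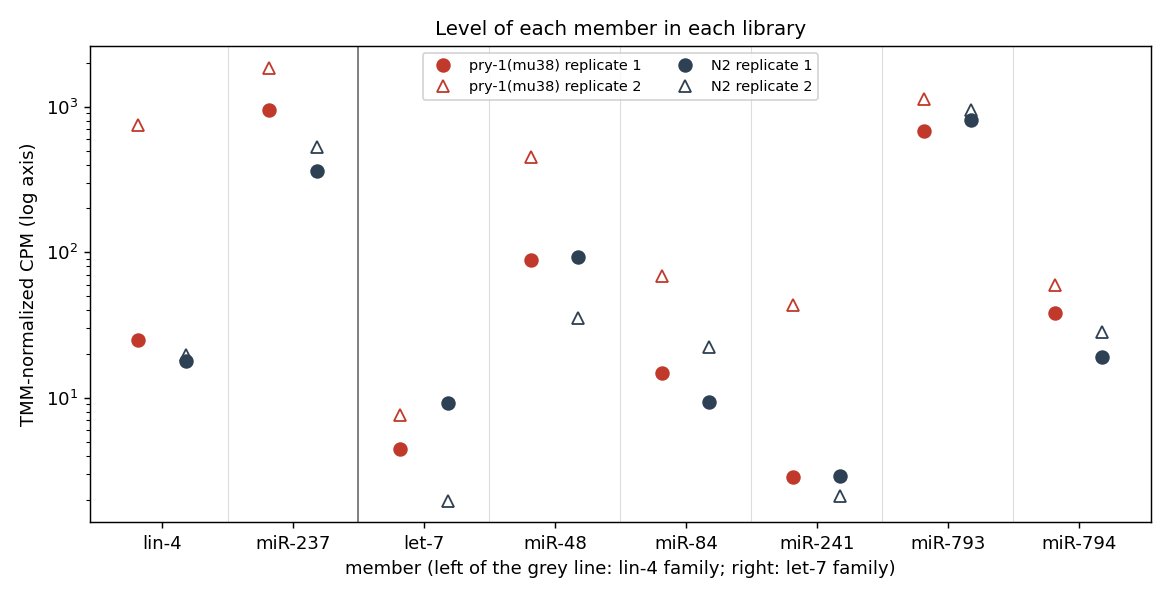
TMM-normalized CPM (y axis, log scale) of each member (x axis) in each library, with *pry-1(mu38)* in red left of N2 in dark blue, replicate 1 as circles and replicate 2 as open triangles. Each member but *let-7* is highest in *pry-1(mu38)* replicate 2, and the strains are apart only for *lin-4*, *miR-237* and *miR-794*.

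The difference between the *pry-1(mu38)* replicates was graded among the members. Ranked by the fold of replicate 2 over replicate 1 over the 84 miRNAs with counts in a mutant library, *lin-4* was first (29.9-fold) and *miR-241* second (15.3-fold). *miR-48* ranked 5 (5.15-fold), *miR-84* ranked 7 (4.64-fold) and *miR-237* ranked 9 (1.95-fold). *let-7* (1.74-fold), *miR-793* (1.67-fold) and *miR-794* (1.56-fold) ranked 13, 15 and 17. All 8 members were therefore higher in replicate 2 and among the first 17, against 48.8% of all 84 miRNAs higher in replicate 2, and 4 of the 8 were more than 2-fold higher, against 9.52% of all. The N2 replicates did not show this order. There 5 of the 8 members were higher in replicate 2, *lin-4* differed by 1.09-fold, and the largest differences were those of *let-7*, 4.66-fold higher in replicate 1, *miR-48*, 2.63-fold higher in replicate 1, and *miR-84*, 2.39-fold higher in replicate 2. Among markers of other tissues, the muscle miRNA *miR-1* was at 67.5 and 128 CPM in *pry-1(mu38)* and 76.2 and 117 in N2. The neuronal *miR-124* was at 22.1 and 34.1 CPM in *pry-1(mu38)* and 33.6 and 31.6 in N2, and the neuronal *lsy-6* at 62.1 and 53.6 in *pry-1(mu38)* and 91.6 and 80.8 in N2. None of the 8 miRNAs of the embryonic miR-35 family had a matched row, so the carry-over of embryonic RNA was not measured here. The part of tissue or stage differences in these values was not tested.

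**Figure D3:**
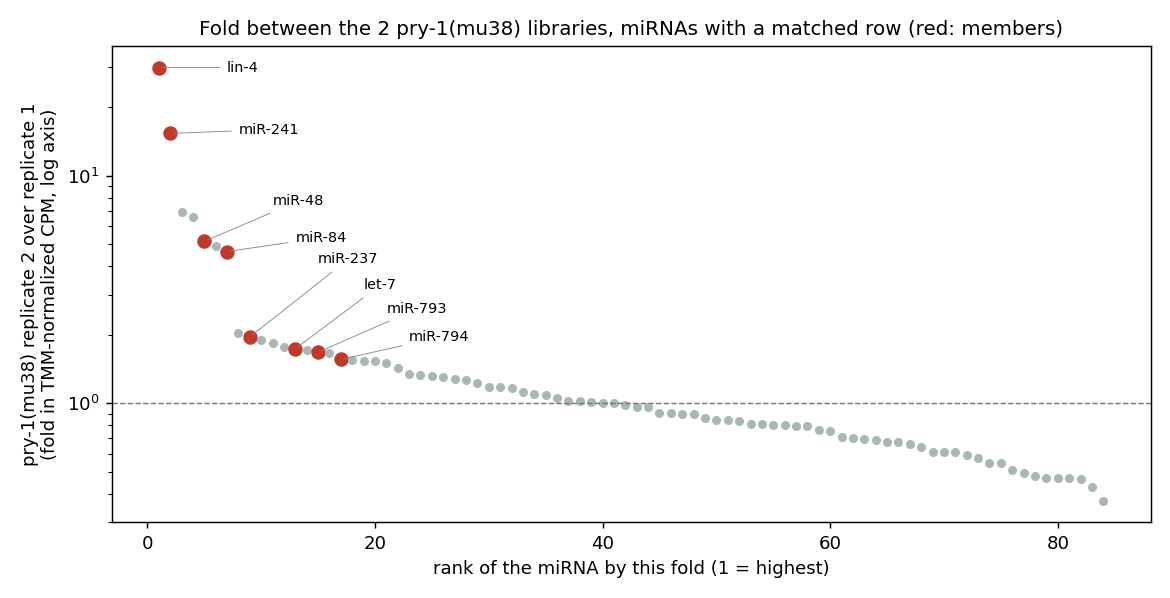
Fold of *pry-1(mu38)* replicate 2 over replicate 1 (y axis, TMM-normalized CPM, log scale) of 84 miRNAs in order of that fold (x axis), with the 8 members in red and the dashed line at no difference. *lin-4* and *miR-241* hold the first ranks, and all members lie above the line and within the first 17.

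Profiles over the 4 libraries were compared by the Euclidean distance of log2(CPM + 1), centred on each miRNA's mean. The profile of *lin-4* was nearest to that of *miR-241* (distance 1.33), a member of the other family, and farther from that of *miR-237* (3.02), its partner by seed. Its nearest miRNA outside the families was *miR-230* at 3.36, which had 652 and 1113 CPM in *pry-1(mu38)* and 303 and 492 in N2. *miR-230* was also the nearest outside miRNA to *miR-237* (0.49) and to *miR-241* (2.22), while *miR-77* was the nearest to *miR-48* (1.86). The following ones were *miR-788* and *miR-79* for *lin-4* and *miR-241*, *miR-60* and *miR-253* for *miR-237*, and *miR-230* and *miR-79* for *miR-48*. *miR-794* lay 0.63 from *miR-237*. With 4 libraries these distances are descriptions, and those of *lin-4* and *miR-241* rest on *pry-1(mu38)* replicate 2.

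*miR-48*, *miR-84*, *miR-241* and *miR-794* had 2 rows each in the count table, without a label for the arm of the hairpin. The second rows are not covered by the read totals and were placed at the displacement of the first row. For *miR-48*, matched rows with the same displacement stood on both sides. Its second row held 12 and 94 counts in *pry-1(mu38)* and 23 and 10 in N2. This was 4.11% (2.14 to 7.07) and 4.0% (3.25 to 4.88) of both rows in *pry-1(mu38)* and 4.06% (2.59 to 6.02) and 3.85% (1.86 to 6.96) in N2. The 2 rows of *miR-48* thus kept one proportion in all 4 libraries within counting error, and the second row was 5.01-fold higher in *pry-1(mu38)* replicate 2 than in replicate 1, near the 5.15-fold of the first row. The second row of *miR-84*, in place as deposited, held 19 and 47 counts in *pry-1(mu38)* and 13 and 33 in N2, which was 28.8% (18.3 to 41.3) and 12.1% (9.04 to 15.8) of both rows in *pry-1(mu38)* and 19.1% and 17.2% in N2. It was 1.58-fold higher in *pry-1(mu38)* replicate 2 than in replicate 1, where the first row was 4.64-fold higher. For *miR-241* the second row held 9 and 44 counts in *pry-1(mu38)* and 6 in N2 replicate 1, and no count could be assigned in N2 replicate 2. The second row of *miR-794* held 0 and 5 counts in *pry-1(mu38)* and was not used, because its N2 replicate 2 count would be the one that *miR-795* requires.

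**Figure D4:**
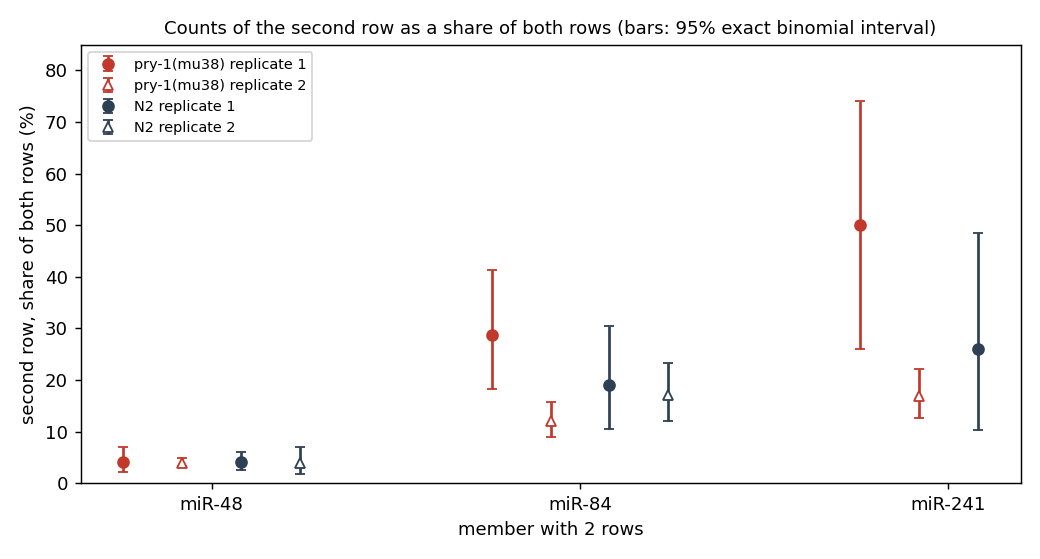
Counts of the second row as a share of both rows (y axis, %) for the 3 members whose second row could be placed (x axis), with *pry-1(mu38)* in red left of N2 in dark blue and 95% exact binomial intervals as bars. The shares of *miR-48* lie between 3.85% and 4.11% in the 4 libraries, and those of *miR-84* and *miR-241* have wider intervals.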

How the data were processed

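The deposited values are raw counts, not normalized, for which the authors' series text names miRDeep2 with the miRBase annotation. Reads of 15 to 25 nt were studied. Which matches were counted is not given in the sources used here. BWA and DESeq are named in the submitters' processing notes without versions. Trimming and the treatment of multiply matching reads are not given in the sources used here. No molecular identifiers are named, so PCR copies may be counted as separate reads.

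Column names gave the strain letter and replicate, and 0 columns had no sample. N2 replicate 1 was kept in place. For the remaining libraries, displacements of up to 3 rows were searched for sums that met the listed read total. A displaced match was accepted by itself from 1000 reads, if it was the only combination and none lay within 10 reads. Otherwise it was accepted at a neighbour's displacement, or when 2 successive miRNAs of at least 100 reads shared one, and sums within 0.1% were accepted at a neighbour's displacement. Of 126 names both in the list and in the table, 87 were matched (30 in their own row, 52 displaced, 5 within 0.1%) and 39 were not. One pair had identical counts and was entered once, which left 86 rows. The placement and the tests were tested on simulated data. With simulated displacements of less than 3 rows, 93.9% of the 126 names were matched and 0% of the matches were wrong. Fewer names were matched in the real table, so this error rate need not hold there. At the fitted dispersion of 0.142, edgeR recovered 57.5% of simulated log2 changes of 2 and 19.6% of simulated composition differences. All simulated miRNAs had the same dispersion. *lin-4* differed 29.9-fold and *miR-241* 15.3-fold between the *pry-1(mu38)* replicates, so these rates need not hold for such members. Members and compositions not past the threshold may therefore still differ between strains.

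Library sizes were sums over all rows. edgeR 4.0.16 in R 4.3.3 was used with TMM, filterByExpr (minimum count 10), glmQLFit and glmQLFTest, two-sided and without covariates. Standard errors were the log2 fold change divided by the square root of F. Composition was tested with diffSpliceDGE on the same fit, with miRNAs grouped by bases 2 to 7. DESeq2 1.42.0 was an alternative. Shares have Clopper-Pearson intervals (scipy 1.17.1) at 95%. The study's qRT-PCR and its own fold changes and p-values, in tables not used here, were left out.

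Named were the members, their rows, *miR-795*, the 3 nearest outside miRNAs of *lin-4*, *miR-237*, *miR-48* and *miR-241*, other matched miRNAs with a member's bases 2 to 7 (there were 0), and fixed tissue markers. The members, lists and tests were chosen with earlier results of these data known. Alternatives changed the scaling, filter, test, block, libraries, rows and family definition.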

Additional observations from a re-analysis of the deposited data

How the results depend on the processing

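Under every scaling, filter and test tried on all 4 libraries, 0 of the 8 members were past the threshold, and with rows as deposited also 0. Across the 4 fits without one library this number ranged from 0 to 6. The number of miRNAs past the threshold was 1 and was 0 without a filter, with the replicate block, with rows as deposited, and without miR-2209c (chosen after seeing the data), and ranged from 0 to 11 without one library. The number of miRNAs past the threshold in composition was 0 and ranged from 0 to 3 without one library. For the *lin-4* family sum, the log2 fold change ranged from 0.93 to 2.41 without one library and was 1.93 with DESeq2's Wald test, which passed the threshold. For the *let-7* family sum it ranged from -0.39 to 0.77 without one library. The cause of these changes was not tested, except that fits without a library hold fewer samples.

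Shares in the *let-7* family depended on the placement of rows. In the rows as deposited, the mean share of *miR-793* was 31.5% in *pry-1(mu38)* and 64.1% in N2, and with all rows of a name summed it was 28.2% in *pry-1(mu38)* and 61.0% in N2. The mean share of *miR-48* in *pry-1(mu38)* was 64.3% in the rows as deposited, where its row holds mutant counts that by the read totals are those of miR-47. Without *miR-793* and *miR-794* in the family, *miR-48* took 79.6% in *pry-1(mu38)* and 69.1% in N2, by construction. Shares in the *lin-4* family did not change with the placement.

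Without one library, the log2 ratios of single members that changed sign ranged from -0.59 to 1.62 for *let-7*, from -0.36 to 2.16 for *miR-84*, from -0.047 to 4.17 for *miR-241* and from -0.62 to 0.41 for *miR-793*. The composition values ranged from -0.66 to 2.83 for *lin-4*, from -0.43 to 0.022 for *miR-237* and from -1.05 to 1.30 for *let-7*. With families by bases 2 to 8, *miR-793* and *miR-794* were not in the family of the other *let-7* members. The composition value of *miR-84* was then -0.57 in place of 1.01. That of *miR-241* was 1.255 (SE 1.315) in place of 2.83, and that of *miR-48* 0.122 (SE 1.138) in place of 1.70. That of *let-7* was -1.825 (SE 1.34) in place of -0.25. The values of *miR-241* and *miR-48* by bases 2 to 7 thus depended on *miR-793* and *miR-794* being in the family. Those of *lin-4* and *miR-237* did not change.

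The replicate numbers are not described as a shared culture or day. Across 85 miRNAs, not independent of each other, the deviations of libraries with one number had r = 0.312. Under the replicate block, 0 miRNAs and 0 members were past the threshold, the *lin-4* family sum had a log2 fold change of 1.76 (adjusted p = 0.165, edgeR), and the composition value of *let-7* was 0.14. Counts under 20, as of *let-7* and *miR-241*, limit those shares.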
